A study of Mus musculus with 5 samples.

Results

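Retinoid signalling in mouse interscapular brown adipose tissue (iBAT) is described here through 8 genes, taken by symbol from the 32285 genes of each of 2 count matrices. They encode the retinaldehyde dehydrogenases *Aldh1a1*, *Aldh1a2* and *Aldh1a3*, the retinoic acid receptors *Rara*, *Rarb* and *Rarg*, and the retinoid X receptors *Rxra* and *Rxrg*. All 8 genes were present in both matrices, with between 55 UMIs (*Aldh1a2*) and 17723 UMIs (*Rarb*) in the WT and Ucp1-STX4KO matrix. UMIs (unique molecular identifiers) count captured RNA molecules. The list was drawn up because *Aldh1a1* had been among the genes with the highest level in *Ucp1*-low adipocyte nuclei of these same data. Its values in that contrast are therefore a description, and so are the levels of all 8 genes by cell type.

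The first matrix holds single-nuclei libraries from 3-month-old littermate controls (WT) and from Ucp1-STX4KO mice, in which floxed *Stx4* is removed by a Cre recombinase under the *Ucp1* promoter, and so in cells that have used that promoter. Controls carried either the Cre transgene or the floxed allele without the other. The second, aging, matrix holds libraries from C57BL/6J mice of 2, 12 and 24 months. The methods describe nuclei of 4 male mice, sorted by flow cytometry after a homogenization tuned to brown adipocyte nuclei and do not tie a mouse to a library. Libraries can be told apart by the last digit of each barcode, which no label links to a genotype or an age. They are therefore named by that digit, and no genotypes or ages are compared. Each condition has 1 library, so no p-value is given, and the exact 95% intervals in parentheses cover counting error only.

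Retinol, the circulating form of vitamin A, is oxidized to retinaldehyde and then, irreversibly, to retinoic acid by the retinaldehyde dehydrogenases. Retinoic acid binds the RAR receptors, which act on DNA as dimers with an RXR, and the RXRs also pair with PPAR, thyroid hormone, vitamin D and liver X receptors. In brown adipocytes the *Ucp1* enhancer is a known target of RAR and RXR dimers, and *Rarb* is itself a classical gene induced by retinoic acid.

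In the WT and Ucp1-STX4KO matrix, libraries 1 and 2 held 76195924 and 39857819 UMIs in 11201 and 9106 nuclei, with medians of 5998 and 3284.5 UMIs per nucleus. The 3 aging libraries held 14486189 to 20891602 UMIs in 10000 barcodes each, with medians of 891 to 1719.5 UMIs per barcode, and 7842 to 10000 of these barcodes were kept as nuclei. Libraries of a matrix shared 23 barcodes in the first matrix and 28 to 45 in the second. The targeted gene, *Stx4a*, reached 60.4 CPM (58.4–62.4) and 50.04 CPM (47.3–52.9) in adipocyte-gated nuclei of libraries 1 and 2, where CPM is the number of UMIs per 1000000 UMIs of the class. Neither library lacked it, and where the counted reads lie relative to the deleted part is not given in the sources used here, so it checks no label. Nuclei were gated into classes by marker genes, which placed 16166 nuclei (79.6%) there and 22443 (80.6%) in the aging matrix. Among them were 12759 adipocyte-gated nuclei in the first and 2229 in the second matrix, against a label of brown adipocytes for every library. The gated nuclei of the second matrix were mainly endothelial (14703 nuclei). Adipocyte markers summed to 14612 CPM in the adipocyte-gated nuclei of the first matrix, and they were also present in its stromal-gated nuclei at 4802 CPM beside 3142 CPM of stromal markers. In the second matrix the stromal-gated nuclei held 981 CPM of adipocyte and 6403 CPM of stromal markers.

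Among the gated classes, *Aldh1a1*, which lies at chr19:20492715-20643465 on the plus strand of GRCm38, had its highest levels outside the adipocytes. In stromal-gated nuclei, the class of fibroblasts and progenitors, it stood at 713 CPM (675–752) in library 1 and 108 CPM (96.5–122) in library 2 of the first matrix. In adipocyte-gated nuclei it stood at 2.75 CPM (2.35–3.21) and 58.1 CPM (55.1–61.1). The stromal level was thus higher in both libraries, but the distance between the classes shrank from 259 times (220–307) in library 1 to 1.87 times (1.64–2.12) in library 2. Over both libraries the stromal level was 18.4 times (17.1–19.7) the adipocyte level.

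Skeletal muscle-gated nuclei were the second class rich in *Aldh1a1* in the WT and Ucp1-STX4KO matrix. Nearly all of them, 360 of 370, came from library 2, where *Aldh1a1* reached 375 CPM (347–403), 6.45 times (5.89–7.06) the adipocyte level of that library. The 10 muscle nuclei of library 1 gave 610 CPM (484–759). Muscle nuclei without a single UMI of a stromal marker kept 409 CPM over 272 nuclei. The 46 Schwann-gated nuclei, the glia of peripheral nerves, held 197 CPM (140–270), but among the 10 of them with no stromal marker UMI only 1 UMI of *Aldh1a1* was left (15.5 CPM). Mural-gated nuclei (pericytes and vascular smooth muscle) held 28.0 CPM, endothelial-gated nuclei 21.2, T lymphocyte-gated nuclei 18.4 and macrophage-gated nuclei 10.6 CPM. In these pooled sums the intervals of the 4 classes and of the adipocytes overlapped from each class to the next in the order, but the libraries differed. Endothelial nuclei were at 4.75 times (2.01–9.57) and mural nuclei at 4.91 times (2.63–8.48) the adipocyte level in library 1. In library 2 the adipocyte level was the higher one, with endothelial nuclei at 0.465 times (0.294–0.7002) and macrophages at 0.205 times (0.135–0.299).

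No nuclei of the aging matrix passed the skeletal muscle gate, and stromal and Schwann nuclei stood highest there. *Aldh1a1* stood at 695 CPM (638–756), 228 CPM (191–270) and 380 CPM (343–420) in the stromal-gated nuclei of libraries 1, 2 and 3. Schwann-gated nuclei had 417 CPM (384–453), 283 CPM (208–376.9) and 196 CPM (132–282). Adipocyte-gated nuclei had 20.03 CPM (14.2–27.5), 8.68 CPM (5.30–13.4) and 13 CPM (7.28–21.4). Stromal nuclei therefore lay above adipocyte nuclei in each of the 3 libraries, by 34.7, 26.2 and 29.3 times, and Schwann nuclei lay 28.2 times (22.1–36.4) above them in the pooled sums. Stromal and Schwann nuclei were close to each other, with a ratio of 1.16 (1.053–1.28) that kept its direction in 1 of the 2 libraries compared. In contrast to the first matrix, the 55 Schwann nuclei without a stromal marker UMI kept 383 CPM. Endothelial-gated nuclei were lower than adipocytes in all 3 libraries, at 11.7, 4.20 and 8.69 CPM. Adipocyte nuclei of library 1 without a stromal marker UMI had 4.604 CPM (1.85–9.49), below that endothelial level.

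**Figure D1:**
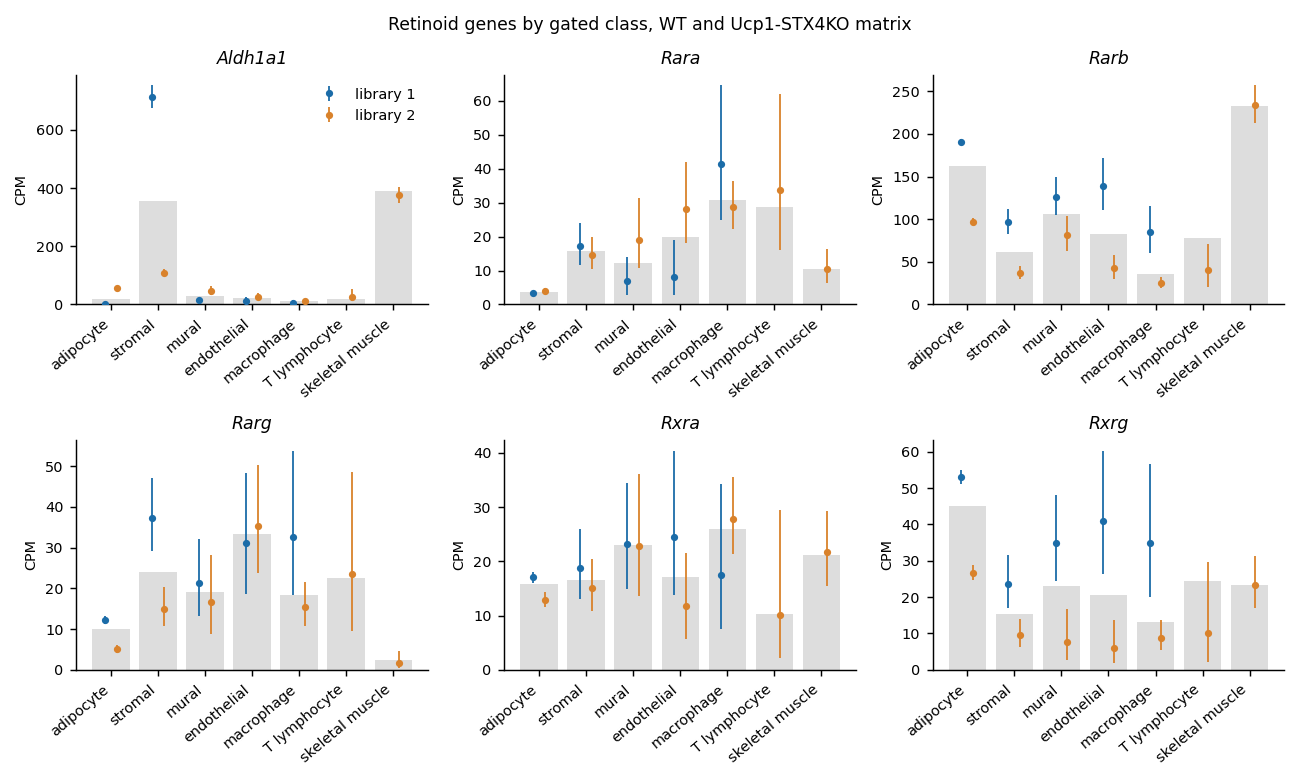
Levels (CPM, the share of the UMIs of the class, scaled to 1000000) of 6 retinoid genes in the marker-gated classes of the WT and Ucp1-STX4KO matrix. Grey bars are the pooled level, points the libraries with at least 50 nuclei of the class with exact 95% Poisson intervals. Among these classes *Aldh1a1* stood highest in stromal (355 CPM) and skeletal muscle (390 CPM) nuclei and *Rxrg* in adipocytes (45.1 CPM). The *Rara* level was highest in macrophages (30.8 CPM) and T lymphocytes (28.6 CPM), which did not part from each other.

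Shares of nuclei with an *Aldh1a1* UMI followed the levels. Because deeper nuclei show more genes, each nucleus was thinned to 1000 UMIs for this. *Aldh1a1* was then seen in 23.2% (exact binomial interval 20.6–25.9) of stromal and 31.8% (27.0–36.8) of muscle nuclei of the first matrix, against 1.54% (1.33–1.78) of adipocyte and 0.751% (0.244–1.74) of macrophage nuclei. Without thinning the shares were 42.1%, 60.5%, 5.12% and 3.08%, at median depths of 3574, 4376.5, 5884 and 2992 UMIs. Macrophages, which are not known as a main site of this gene, are given as the class that should lack it. The thinned shares of the aging matrix were 28.6% (25.6–31.7) in stromal, 29.7% (26.0–33.7) in Schwann, 4.83% (4.14–5.59) in mural and 0.872% (0.526–1.36) in adipocyte nuclei, with 1 of 106 macrophage nuclei. Despite the low level, the more numerous adipocyte nuclei of the first matrix held as many *Aldh1a1* UMIs as its stromal nuclei, 1632 or 38.7% of the gated UMIs each, and 1469 of those in adipocytes came from library 2. The aging matrix had 73 UMIs (2.81%) in adipocyte and 1064 (41.0%) in stromal nuclei.

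Within the mural class of the aging matrix *Aldh1a1* was unevenly spread. Mural-gated nuclei stood at 68.2, 14.1 and 99.9 CPM in libraries 1, 2 and 3. A mural-like graph cluster of 190 nuclei, led by *Actg2*, *Gpr176*, *Cdh3*, *Pi15* and *Cnn1*, reached 1109 CPM of *Aldh1a1*, with 1366, 379 and 1149 CPM by library. It held 46.3% of the mural-gated *Aldh1a1* UMIs (291 of 628) in 3.78% of the mural-gated nuclei (143 of 3786). The 2 larger mural-like clusters had 82.8 CPM and 12.99 CPM, and held 37.7% (237 UMIs) in 1257 and 10.2% (64 UMIs) in 2110 of the mural-gated nuclei. The first of them was rich in *Myh11* (2582 CPM) and *Acta2* (1476 CPM), genes of the smooth muscle contractile apparatus, and the second in *Rgs5* (2563 CPM) and *Abcc9* (2731 CPM), genes typical of pericytes. The small cluster carried both sets, with *Myh11* at 1406, *Acta2* at 985, *Rgs5* at 948 and *Abcc9* at 745 CPM, and *Actg2*, a visceral smooth muscle actin, stood at 266 CPM against 2.86 and 0.337 CPM. Its stromal markers summed to 1446 CPM, against 210 and 631 CPM in the other mural-like clusters. *Pdgfra*, the defining stromal receptor, was at 5.27 CPM (0.638–19.0) in the small cluster, against 5.40 and 5.40 CPM. The first value rests on 2 UMIs, too few to tell whether the clusters differ in this gene. The part of the stromal markers in the *Aldh1a1* level of the small cluster was not tested. This cluster was singled out after its values had been seen.

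**Figure D2:**
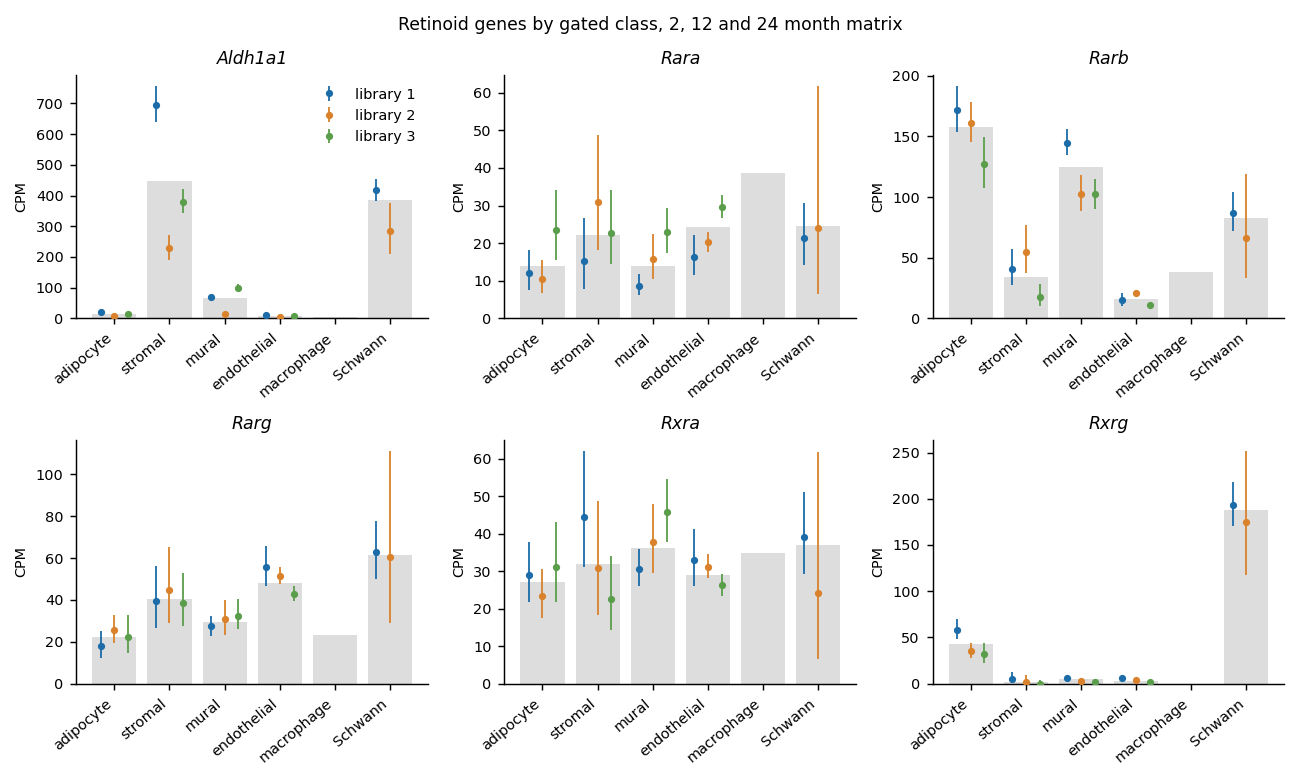
Levels (CPM) of 6 retinoid genes in the marker-gated classes of the aging matrix. Grey bars are pooled levels and points the libraries with at least 50 nuclei, with exact 95% Poisson intervals. *Aldh1a1* was highest in stromal (447 CPM) and Schwann (384 CPM) nuclei, *Rarb* in adipocyte (158 CPM) and mural (125 CPM) nuclei, and *Rxrg* in Schwann (188 CPM) and adipocyte (43.0 CPM) nuclei.

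Adipocyte-like nuclei were unequal in *Aldh1a1*. *Ucp1*-low adipocytes were taken as the adipocyte-like graph clusters whose *Ucp1* level was less than 0.5 times that of the largest adipocyte-like cluster, with *Ucp1* and the retinoid genes left out of the clustering. In the first matrix 1 cluster of 611 nuclei met this, led by *Ptchd4*, *Ofcc1*, *Ncam2*, *Nnat* and *Apcdd1*, with *Ucp1* at 211 CPM against 1013 CPM in the 14399 *Ucp1*-high nuclei. *Aldh1a1* stood at 71.4 CPM (56.0–89.7) in *Ucp1*-low against 1.63 CPM (1.35–1.96) in *Ucp1*-high nuclei of library 1, and at 263 CPM (247–281) against 25.3 CPM (23.4–27.5) in library 2. The ratios were 43.8 (32.2–59.2) and 10.4 (9.37–11.5), so the direction was shared, and the *Ucp1*-high nuclei of library 2 were themselves far above those of library 1. The *Ucp1*-low level was below that of stromal-gated nuclei in library 1 (713 CPM) but above it in library 2 (108 CPM, 96.5–122). With 4.07% of the adipocyte-like nuclei, the *Ucp1*-low cluster held 58.1% of their *Aldh1a1* UMIs. A UMI of *Aldh1a1* was present in 44.2% of *Ucp1*-low and 2.97% of *Ucp1*-high nuclei, at median depths of 6450 and 5801 UMIs, and in 15.7% (12.9–18.8) and 0.779% (0.639–0.940) after thinning to 1000 UMIs, which leaves out 535 *Ucp1*-high nuclei. This is the contrast on which the gene was chosen. Sums over a group of nuclei do not tell fewer nuclei with the RNA from less RNA per nucleus, which is why the shares are given.

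The adipocyte character of the *Ucp1*-low nuclei and the traces of other cells in them were measured beside this. Their adipocyte markers summed to 21025 CPM against 13450 CPM, their brown programme to 3955 against 13250 CPM and their white programme to 2298 against 345 CPM. *Ucp1*, by which the 2 groups were set, is itself in the brown programme. Markers of other classes were also higher, with all 8 stromal markers detected and a sum of 102 against 34.9 CPM, all 6 Schwann markers with 185 against 36.6 CPM, skeletal muscle markers with 77.4 against 35.4 CPM and macrophage markers with 90.9 against 33.8 CPM. Among nuclei without a UMI of a stromal marker, *Aldh1a1* stood at 183 CPM in 356 *Ucp1*-low nuclei, 31.6 times the level in *Ucp1*-high nuclei, with ratios of 38.0 and 11.5 in libraries 1 and 2.

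The mix of adipocyte nuclei also differed between libraries. *Ucp1*-low nuclei were 1.43% of adipocyte-like nuclei in library 1 and 9.66% in library 2, and they held 39.0% and 60.5% of the *Aldh1a1* UMIs of these nuclei. The level in adipocyte-gated nuclei without a stromal marker UMI was 2.55 CPM in library 1 and 43.1 CPM in library 2. Library 2 was also higher in mural (47.1 against 13.5 CPM), endothelial (27.0 against 13.1 CPM) and macrophage (11.9 against 4.35 CPM, the latter from 2 UMIs) nuclei. It was lower in stromal, Schwann (99.6 against 350 CPM) and skeletal muscle (375 against 610 CPM) nuclei, the last 2 from 13 and 10 nuclei in library 1. Which genotype each library holds is not known, so this difference cannot be told apart from the library itself.

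Of the receptors, *Rarb* stood lower where *Aldh1a1* stood higher. *Rarb* was at 86.0 CPM (69.0–106) in *Ucp1*-low and 192 CPM (189–195) in *Ucp1*-high nuclei of library 1, and at 38.0 CPM (31.8–45.0) and 109 CPM (105–113) in library 2. The level was lower in both libraries, with ratios of 0.449 (0.360–0.553) and 0.350 (0.291–0.416). *Rxra*, the RXR of broadest use, stood at 41.1 against 16.6 CPM in library 1 and at 21.4 against 11.5 CPM in library 2, with ratios of 2.47 (1.77–3.36) and 1.86 (1.42–2.41). *Rxrg* showed no shared direction, with ratios of 0.853 (0.623–1.14) and 1.11 (0.895–1.37), nor did *Rara* with 1.78 (0.647–3.94) and 0.647 (0.302–1.24). *Rarg* was at 0.946 (0.487–1.66) in library 1 and at 1.92 (1.24–2.88) in library 2. *Aldh1a2* and *Aldh1a3* had 1 and 2 UMIs in *Ucp1*-low nuclei, too few for a comparison.

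Counting genes with at least a 2-fold difference in each library that had 50 or more *Ucp1*-low nuclei, and with at least 200 UMIs, 4.2% of 12035 genes were higher and 3.22% were lower in *Ucp1*-low nuclei of the first matrix. Of the 8 retinoid genes 6 had enough UMIs, and *Aldh1a1* was higher and *Rarb* lower by this count. Of 34 other retinoid pathway genes *Nrip1* was higher, and *Dhrs9*, *Ppara* and *Nr4a1* were lower. *Nrip1*, a corepressor of nuclear receptors, was at 1799 against 359 CPM, with ratios of 4.87 and 2.56 in the libraries. *Dhrs9*, an enzyme that oxidizes retinol to retinaldehyde, was at 0.424 and 0.153 times, and *Ppara*, the fatty acid receptor that pairs with RXR, at 0.446 and 0.163 times the *Ucp1*-high level. *Ppara* is itself a gene of the brown programme.

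The aging matrix had a far smaller *Ucp1*-low cluster, of 65 nuclei led by *Cyp2e1*, *Slc7a10*, *Retn* and *Nnat*, set against 2684 *Ucp1*-high nuclei, with *Ucp1* at 66.8 against 1031 CPM. *Aldh1a1* had 32 UMIs in it. Its level was 89.8 CPM (52.3–144) against 29.6 CPM (23.7–36.6) in library 1, which held 50 of the 65 nuclei, and the ratio was 3.03 (1.69–5.14). Libraries 2 and 3 gave 472 against 6.13 CPM and 209 against 8.02 CPM, from 5 and 10 nuclei. The *Ucp1*-low level was the higher one in all 3 libraries, and 8.18 times (5.35–12.2) the other in the pooled sums. Stromal markers did not differ in the same way, at 200 against 206 CPM, while Schwann markers summed to 588 against 166 CPM. Without nuclei that held a stromal marker UMI, 11 UMIs of *Aldh1a1* were left, and the ratio in library 1 was 3.60 (0.379–17.4). *Rarb* was at 47.6 CPM (21.7–90.3) against 154 CPM (140–169) in library 1 and *Rxra* at 52.8 CPM (25.3–97.2) against 30.7 CPM (24.7–37.7). The *Rarb* ratio was 0.308 (0.140–0.590) in that library, while the interval of the *Rxra* ratio, 1.72 (0.799–3.32), held 1. *Rarb* ratios of 0.692 (0.0835–2.51) and 1.36 (0.434–3.23) in libraries 2 and 3 rest on 2 and 5 UMIs and fix no direction. *Rxrg* had 3 UMIs in the *Ucp1*-low cluster. In this matrix 4.47% of 3221 genes were higher and 11.1% were lower in *Ucp1*-low nuclei of library 1. Only *Rarb* of the 8 genes had enough UMIs there, and it was lower. Of 17 pathway genes *Dgat1*, *Nr4a1* and *Nrip1* were higher, and *Dhrs4* and *Ppara* were among those lower. *Nrip1* and *Ppara* thus had the same direction in both matrices, and *Nr4a1* the opposite.

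**Figure D3:**
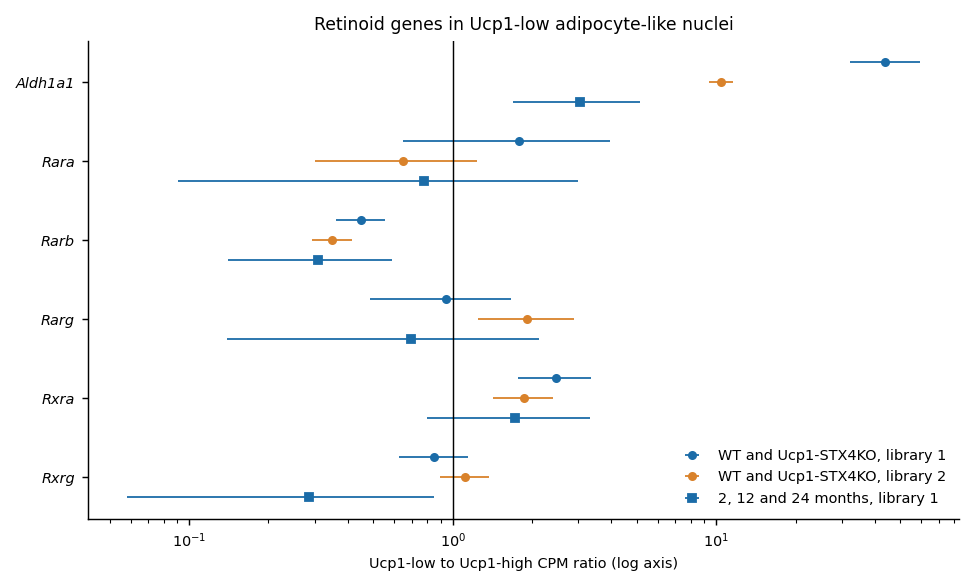
Ratio of the level in *Ucp1*-low to that in *Ucp1*-high adipocyte-like nuclei for each retinoid gene, on a log axis, with exact 95% intervals and a line at 1. Points are libraries 1 and 2 of the first matrix (WT and Ucp1-STX4KO) and library 1 of the aging matrix. *Aldh1a1* lies above 1 in all of them (43.8, 10.4 and 3.03) and *Rarb* below 1 (0.449, 0.350 and 0.308).

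Clusters can follow single genes, so adipocyte-gated nuclei were also ranked within each library by the share of their UMIs in 11 brown programme genes. None of these is one of the 8 genes, but *Ucp1* and *Ppara* are among them. The ranking is therefore not independent of the *Ucp1* contrast on which *Aldh1a1* was chosen, and its values here are again a description. The 1 in 5 nuclei with the lowest share (brown-poor) were compared with the 1 in 5 with the highest (brown-rich), 2551 nuclei each in the first and 445 each in the aging matrix. These are ranges of a score and not cell types. In the first matrix *Aldh1a1* was at 7.21 CPM in brown-poor and 1.81 CPM in brown-rich nuclei of library 1 (ratio 3.99, 2.42–6.87), and at 206 and 4.92 CPM in library 2 (41.8, 29.1–62.3). The aging libraries gave 39.0, 30.6 and 42.8 CPM in brown-poor and 0, 0 and 3.93 CPM in brown-rich nuclei. The brown-poor level was the higher one in all 5 libraries, although the aging values rest on 32 UMIs against 1. The stromal marker sums, 53.1 against 27.3 CPM in the first matrix and 218 against 105 CPM in the second, were also higher in brown-poor nuclei. So were Schwann markers, with 83.0 against 27.0 CPM in the first and 90.5 against 41.6 CPM in the second matrix, and in the second also endothelial (2239 against 871 CPM) and mural markers (564 against 236 CPM). The part of these markers in the *Aldh1a1* level was not tested.

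*Rarb* was lower in brown-poor nuclei in library 2 of the first matrix, with 45.8 against 140 CPM (ratio 0.326, 0.283–0.376), but barely in library 1, with 182 against 189 CPM (0.965, 0.907–1.03). In the aging libraries 1, 2 and 3 its ratios were 0.518 (0.342–0.774), 0.256 (0.144–0.428) and 0.478 (0.233–0.920). *Rarg* went the other way in library 2 of the first matrix, at 9.51 against 0.655 CPM (14.5, 5.35–55.2), from 53 against 4 UMIs, while library 1 gave a ratio of 1.14 (0.898–1.45). *Rxra* was at 2.28 times (1.62–3.23) in library 2 and 1.13 times (0.932–1.37) in library 1, and *Rxrg* at 0.875 and 0.852 times. Library 2 thus held the wider differences, and *Ucp1* itself differed more there, at 0.0545 times against 0.480 times in library 1. By the count of 2-fold differences in every library, 1.01% of 9791 genes were higher and 0.0715% lower in brown-poor nuclei of the first matrix, and of 5 retinoid genes tested *Aldh1a1* was higher and none was lower. Of 33 pathway genes *Ppara* was lower, which the ranking itself favours since it uses the gene, and no other was counted. The aging matrix had 4.42% of 1968 genes higher and 2.18% lower, *Rarb* was the only 1 of the 8 tested and was not counted, and of 13 pathway genes *Ppara*, again a gene of the ranking, was lower.

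Graph clusters were named by the same marker lists as the gates, so their agreement is favoured in advance and does not measure *Aldh1a1*. The named cluster and the gated class agreed for 98.6% of the nuclei that had both in the first matrix (15650 of 15866) and for 96.2% in the second (20436 of 21236).

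**Figure D4:**
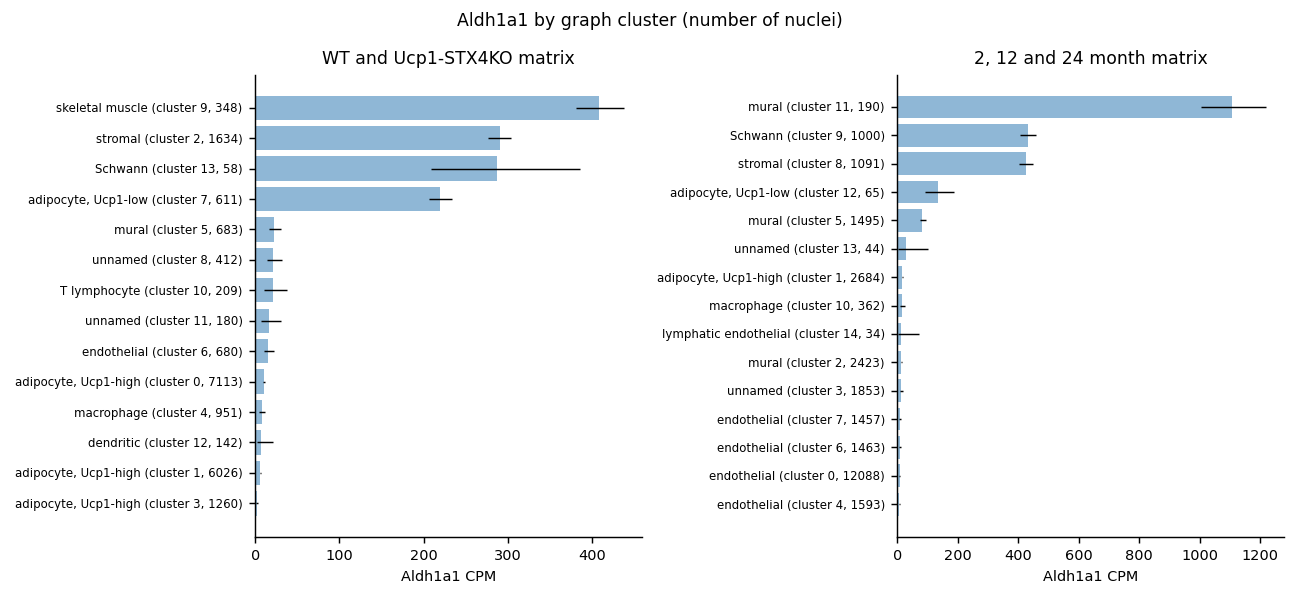
*Aldh1a1* level (CPM) in every graph cluster of both matrices, with the cluster's name by its markers, its number of nuclei and the exact 95% Poisson interval. The *Ucp1*-low adipocyte-like clusters stand at 220 CPM (611 nuclei) and 134 CPM (65 nuclei), and the mural-like cluster of 190 nuclei at 1109 CPM.

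*Aldh1a2* and *Aldh1a3*, the other enzymes that make retinoic acid, were near the limit of detection. *Aldh1a2*, at chr9:71215789-71296243 on the plus strand, had 55 UMIs in the first matrix. Of these, 8 lay in 5 of the 23 dendritic-gated nuclei, a level of 120 CPM (52.0–237) in library 2, and 18 in 12 of the 681 macrophage-gated nuclei, at 6.53 and 6.61 CPM in libraries 1 and 2. Adipocyte-gated nuclei, the largest class, had 5 UMIs. The dendritic-like graph cluster of 142 nuclei had 24 UMIs, a level of 58.9 CPM (37.8–87.7), with 7.20 CPM in library 1 and 85.7 CPM in library 2. Macrophage nuclei without a dendritic marker UMI kept 10 UMIs, or 5.06 CPM. In the aging matrix the gene had 44 UMIs, 18 of them in 4 stromal nuclei, and 12 of those 18 in a single nucleus.

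*Aldh1a3*, at chr7:66390890-66427517 on the minus strand, had 56 UMIs in the first matrix. Stromal nuclei held 17 of them, at 4.80 CPM (2.20–9.12) in library 1 and 2.93 CPM (1.27–5.78) in library 2, and adipocyte nuclei 28, at 0.338 and 0.316 CPM. In the aging matrix 27 of 105 UMIs lay in 24 of the 630 Schwann-gated nuclei, at 16.2 CPM (10.2–24.6), 24.1 CPM (6.57–61.8) and 6.77 CPM (0.171–37.7) in libraries 1, 2 and 3. Endothelial nuclei, by far the most numerous, held 30 UMIs, at 1.25, 1.49 and 0.805 CPM. The Schwann level was above the next class, the stromal nuclei, by 6.42 times (2.60–19.0).

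*Rara*, at chr11:98927818-98974942 on the plus strand, is the RAR found in most tissues. Its level in macrophage-gated nuclei of the first matrix was 41.3 CPM (24.9–64.5) in library 1 and 28.6 CPM (22.1–36.5) in library 2, and its level in adipocyte-gated nuclei was 3.33 CPM (2.88–3.83) and 4.03 CPM (3.29–4.89). Macrophages lay 12.4 times (7.32–19.9) and 7.10 times (5.12–9.79) above adipocytes. Adipocytes were the lowest class of all, with skeletal muscle, the next, at 2.93 times their level (1.79–4.56). Between these ends T lymphocyte (28.6 CPM), endothelial (19.8 CPM), stromal (15.6 CPM), mural (12.1 CPM) and muscle (10.4 CPM) nuclei did not part from their neighbours. The aging matrix gave a narrower range, with endothelial nuclei at 16.3, 20.3 and 29.6 CPM against adipocyte nuclei at 12.1, 10.4 and 23.4 CPM. The ratios of 1.35 (0.784–2.36), 1.95 (1.28–3.10) and 1.27 (0.856–1.95) were all above 1, but the interval left 1 out in library 2 only. Macrophages of that matrix, 116 nuclei, held 10 UMIs of *Rara*, or 38.7 CPM (18.6–71.1).

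*Rarb*, the retinoic acid-induced receptor, lies at chr14:16430839-16819156 on the minus strand, and with 388 kb it spans the longest stretch of genome of the 8 genes. Unspliced RNA is abundant in nuclei and long genes offer more of it, so levels were compared between classes and not between genes. A promoter sequence bears on its known control. RAR and RXR dimers bind direct repeats of a hexamer, and a search of RefSeq promoters (GRCm38.p6, 250 bases before to 50 after the start) on both strands for pairs of the hexamer AGGTCA, its variant AGTTCA, the variant GGGTCA or the variant GGTTCA, spaced by 1, 2 or 5 bases, found 1 repeat among the 14 promoters of 7 members. It lies 53 bases before a *Rarb* start at chr14:16575513-16575529, on the strand of the gene, with a spacing of 5 bases. Of 56 other pathway genes 44 had a promoter in the table, and 2 of these held a repeat. *Bco1*, which splits beta-carotene, held one with a spacing of 1 base. *Cyp26a1*, a retinoic acid-degrading enzyme, held a repeat with a spacing of 5 bases, as in *Rarb*, at chr19:37697776-37697792, 32 bases before the start on the opposite strand. The repeats of *Rarb* and *Cyp26a1*, alike in spacing, are shown with 6 flanking bases, read on the strand of the repeat, with the hexamers in capitals.
Rarb: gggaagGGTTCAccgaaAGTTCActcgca
Cyp26a1: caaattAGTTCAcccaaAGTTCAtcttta
Of all 32851 promoters of this length 0.588% held such a repeat at any of the 3 spacings and 0.0974% at a spacing of 5. A match describes the letters and does not show that a receptor binds there.

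The *Rarb* level was high in adipocytes in both matrices. Adipocyte-gated nuclei stood at 191 CPM (187–195) and 97.3 CPM (93.5–101) in libraries 1 and 2 of the first matrix, mural-gated nuclei at 126 CPM (105–149) and 81.5 CPM (62.7–104), and endothelial-gated nuclei at 139 CPM (111–172) and 42.2 CPM (29.6–58.5). Adipocytes were above endothelial nuclei by 1.38 times (1.11–1.72) and 2.30 times (1.66–3.30). Skeletal muscle nuclei of library 2, at 234 CPM (213–257), lay 2.41 times (2.17–2.66) above the adipocytes of that library. Muscle nuclei without a mural marker UMI gave 221 CPM. Stromal (61.3 CPM) and macrophage (35.2 CPM) nuclei had the lowest levels.

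The distance between classes was wider in the aging matrix. *Rarb* was at 172 CPM (154–192), 161 CPM (145–178) and 127 CPM (108–150) in adipocyte-gated nuclei of libraries 1, 2 and 3. Mural-gated nuclei had 145 CPM (135–156), 102 CPM (88.2–118) and 102 CPM (90.3–115). Endothelial-gated nuclei had 15.1 CPM (10.5–20.8), 21.0 CPM (18.4–23.8) and 10.8 CPM (9.03–12.8). Adipocyte nuclei were thus 11.4, 7.67 and 11.8 times above endothelial nuclei, and mural nuclei 9.63, 4.87 and 9.48 times. Adipocyte nuclei were above mural nuclei in all 3 libraries by a small step, 1.26 times (1.15–1.38) in the pooled sums. Mural nuclei without an adipocyte marker UMI, 405 of 3786, kept 105 CPM. Schwann nuclei (82.6 CPM) and stromal nuclei (34.4 CPM) followed.

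*Rarg*, at chr15:102234938-102257517 on the minus strand, was lower in adipocytes than in endothelial nuclei. Endothelial-gated nuclei stood at 31.0 CPM (18.7–48.5) and 35.2 CPM (23.8–50.3), and adipocyte-gated nuclei at 12.2 CPM (11.3–13.1) and 5.02 CPM (4.18–5.97), in libraries 1 and 2 of the first matrix. Endothelial nuclei were 2.55 times (1.53–4.01) and 7.01 times (4.55–10.5) higher. Muscle nuclei were lower still, with 5 UMIs in 370 nuclei or 2.47 CPM (0.802–5.76). The aging libraries had 55.6, 51.6 and 43.1 CPM in endothelial and 17.9, 25.6 and 22.5 CPM in adipocyte nuclei, ratios of 3.10 (2.12–4.67), 2.01 (1.54–2.68) and 1.91 (1.29–2.95). Schwann nuclei were highest there, at 61.7 CPM (50.3–74.8).

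*Rxra*, at chr2:27676440-27762957 on the plus strand, differed least between classes. In the first matrix the pooled level ran from 10.2 CPM in T lymphocyte nuclei through 15.8 CPM in adipocyte nuclei to 26.0 CPM in macrophages. The aging matrix ran from 27.1 CPM in adipocyte nuclei to 37.1 CPM in Schwann nuclei. No class parted from its neighbour in the order in either matrix, but classes further apart in the order could differ. Macrophages of the first matrix were at 2.15 times (1.62–2.83) the adipocyte level in library 2 and at 1.02 times (0.440–2.02) in library 1.

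*Rxrg*, at chr1:167598384-167639623 on the plus strand, is the RXR of narrower use, known from muscle and nerve. Adipocyte-gated nuclei of the first matrix had 53.0 CPM (51.1–54.9) and 26.7 CPM (24.7–28.8) in libraries 1 and 2. Endothelial-gated nuclei had 40.8 CPM (26.4–60.3) and 5.87 CPM (1.91–13.7), so that adipocytes were 1.30 times (0.877–2.01) and 4.55 times (1.94–14.1) higher. The step was clear in library 2 and within the counting error in library 1. Skeletal muscle nuclei of library 2 gave 23.2 CPM (16.9–31.2), 0.871 times (0.627–1.18) the adipocyte level of that library.

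In the aging libraries 1, 2 and 3 *Rxrg* stood at 58.5 CPM (48.1–70.4), 35.6 CPM (28.3–44.2) and 32.1 CPM (22.6–44.2) in adipocyte-gated nuclei. Schwann-gated nuclei were higher, at 193 CPM (170–218), 175 CPM (117–251) and 156 CPM (98.7–234). Endothelial-gated nuclei had 5.85 CPM (3.20–9.82), 4.20 CPM (3.10–5.57) and 1.53 CPM (0.920–2.39). Schwann nuclei lay 4.38 times (3.68–5.21) above adipocytes, and adipocytes 13.9 times (10.8–18.2) above endothelial nuclei, and both orders held in every library compared. Mural nuclei had 4.64 CPM and stromal nuclei 2.10 CPM, and none of 116 macrophage nuclei held a UMI, which allows a level of up to 11.6 CPM by a floor of 3 UMIs (the exact interval reaches 14.3 CPM). Schwann nuclei without an adipocyte marker UMI had 221 CPM (450 nuclei), and those without a stromal marker UMI 98.5 CPM (9 UMIs in 55 nuclei). The few Schwann nuclei of the first matrix, 46 in all, had 130 CPM (62.2–239) and 91.3 CPM (45.6–163).

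In droplet data, RNA set free from broken cells can reach any droplet. The levels of *Rarb* and *Rxrg* outside adipocytes were therefore set beside that of *Ucp1*, which the other classes are not known to make. In library 1 of the first matrix *Ucp1* in the other classes lay at 0.484 to 0.790 times its adipocyte level, and in library 2 at 0.254 to 0.578 times. *Rxrg* lay at 0.44 to 0.77 times and *Rarb* at 0.44 to 0.73 times in library 1, near the range of *Ucp1*. In library 2 *Rarb* was at 0.837 times (0.643–1.07) in mural nuclei, beside 0.504 times for *Ucp1*. Muscle nuclei there had *Rarb* at 2.41 times and *Rxrg* at 0.871 times, beside 0.254 times for *Ucp1*. In the aging matrix *Ucp1* was at 0.0171 to 0.158 times its adipocyte level. *Rxrg* outside Schwann nuclei was at 0 to 0.12 times there, also near *Ucp1*, whereas *Rarb* in mural nuclei was at 0.84, 0.63 and 0.80 times, beside 0.0697, 0.133 and 0.0650 times for *Ucp1*. In Schwann nuclei *Rarb* was at 0.506 and 0.412 times in libraries 1 and 2, beside 0.128 and 0.158 times for *Ucp1*. Stromal nuclei of the aging libraries 1, 2 and 3 had *Rarb* at 0.237, 0.340 and 0.140 times, beside 0.0171, 0.145 and 0.0448 times for *Ucp1*. Their *Rxrg* in library 1, at 0.0870 times, rests on 4 UMIs. In the aging matrix, *Rarb* in mural, Schwann and stromal nuclei and *Rxrg* in Schwann nuclei were thus well above the share of *Ucp1*. So were both genes in muscle nuclei of library 2 of the first matrix.

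**Figure D5:**
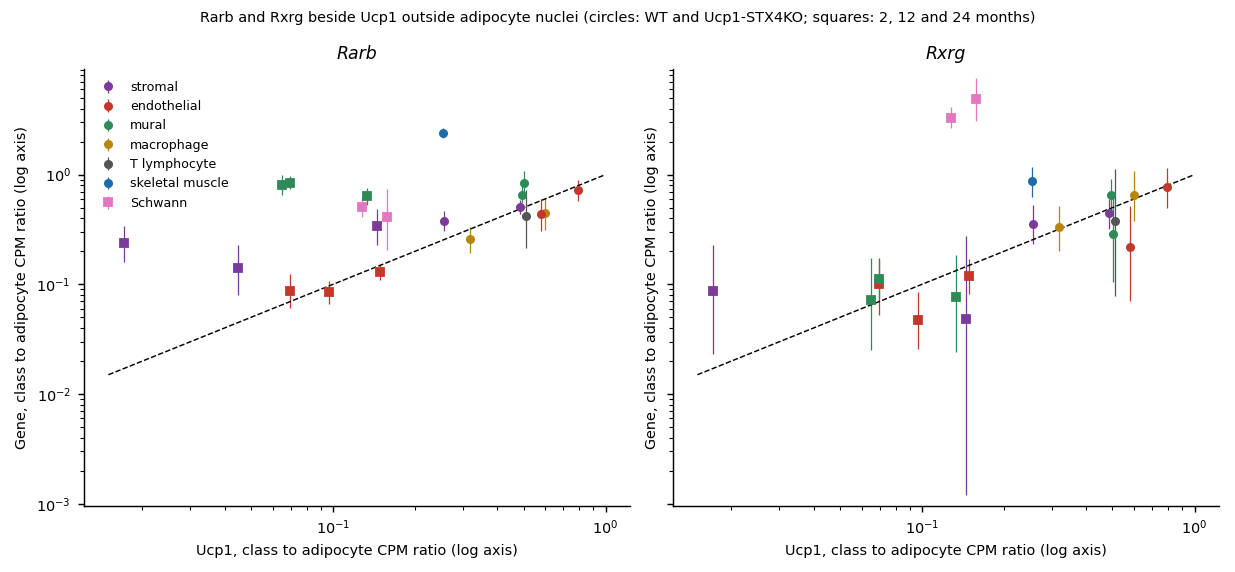
Level of *Rarb* and *Rxrg* in each class relative to the adipocyte level of the same library, against the same ratio for *Ucp1*, both on log axes. Circles stand for the WT and Ucp1-STX4KO libraries and squares for those of the aging matrix, bars are exact 95% intervals, the dashed line marks equality, and values of 0 are not drawn. Mural *Rarb* (0.84, 0.63 and 0.80 times) in the aging matrix lies far above the line.

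How often genes in general stood out by class was counted as at least 2 times the level in all remaining gated nuclei, in each library that had 50 or more nuclei of the class. In the first matrix 40.2% of 12937 genes with at least 200 UMIs did so in some class, against 4 of 6 retinoid genes and 14 of 36 other pathway genes. *Rara* and *Rarg* passed in macrophages (9.56% of all genes) and in T lymphocytes (17.4%, library 2 only), *Rarg* in endothelial (7.16%) and stromal (8.99%) nuclei, and *Aldh1a1* and *Rarb* in skeletal muscle (9.35%, library 2 only). No retinoid gene passed in adipocyte (1.86%) or mural (7.64%) nuclei. *Aldh1a1* was not counted for stromal nuclei, since library 2 fell short of the 2-fold step. The aging matrix had 31.1% of 11612 genes past this step in some class, against 2 of 6 retinoid and 17 of 36 pathway genes. *Lipe* and *Pparg*, among these 17, are gate markers of adipocytes, so their counts were favoured in advance. *Aldh1a1* passed in stromal nuclei (5.13%), and *Aldh1a1* and *Rxrg* passed in Schwann nuclei (5.77%). None of the 6 passed in adipocyte (9.96%), endothelial (6.3%) or mural (6.05%) nuclei. With 6 genes tested, these counts are not read as a property of the list.

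The other retinoid pathway genes, 56 in all, were grouped by their place in the pathway. Each count of a group stands beside the 40.2% and 31.1% of all genes that stood out in some class of the first and the aging matrix. Of the uptake, binding and storage genes 2 of 5 tested stood out in a class of the first matrix and 5 of 5 in the aging matrix. *Lipe*, counted in the aging matrix, is a gate marker of adipocytes, so its count was favoured in advance. *Rbp7*, a binding protein of capillary endothelium, was at 118, 38.8 and 124 CPM in aging endothelial nuclei, and *Fabp5*, which also carries retinoic acid, at 72.6 CPM pooled. Both genes were counted for endothelial nuclei there.

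Enzymes listed under conversion of retinol and retinaldehyde were counted in 4 of 13 cases in the first and 6 of 12 in the aging matrix. The list is wider than the enzymes that interconvert these compounds, and *Retsat* and *Aox1* were among the 6. *Rdh5*, a retinol dehydrogenase, stood out in mural nuclei of both matrices, at 61.8 and 50.9 CPM and at 71.6, 71.9 and 46.9 CPM, against 9.74 and 11.02 CPM in adipocytes. *Dhrs9* was at 60.6, 57.3 and 45.1 CPM in aging adipocyte nuclei. *Dhrs3*, which turns retinaldehyde back into retinol, was at 377.4 CPM in macrophages and 182 CPM in endothelial nuclei of the first matrix, against 56.2 CPM in adipocytes. Of the enzymes that break retinoic acid down, only *Cyp26b1* had enough UMIs, in the aging matrix. It stood out in endothelial nuclei, at 10.9, 55.7 and 23.6 CPM, against 8.96 CPM in adipocytes.

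*Aldh1a7*, a close relative of *Aldh1a1*, lies 49.5 kb from it on the opposite strand, and reads could be split between such near copies. In the first matrix it was at 15.4 CPM in adipocyte nuclei, 6.08 CPM in stromal and 4.45 CPM in muscle nuclei, and in the aging matrix at 22.2 CPM in Schwann and 0.84 CPM in stromal nuclei.

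RXR partners stood out in 5 of 10 cases in each matrix. *Vdr*, the vitamin D receptor, was counted for mural nuclei in both matrices and *Nr1h3*, a liver X receptor, likewise, with pooled levels of 207 and 241 CPM in the first and 80.6 and 143 CPM in the second. *Ppara* was counted for adipocytes in both. *Lipe* and *Pparg*, counted for aging adipocytes, are gate markers of that class. *Rxrb*, the receptor outside the 8 genes, was not counted in either matrix, and its levels ran from 16.8 to 39.7 CPM and from 9.24 to 31.6 CPM. Coregulators were counted in 3 of 7 and 0 of 7 cases.

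The genes whose pattern over classes was most like that of each member were found by Pearson correlation of log2(CPM + 5) over the points of class by library with at least 50 nuclei, 12 in the first and 14 in the aging matrix. The points share libraries and classes, so the values are a description. *Aldh1a1* was followed closely by *Plekha6* (0.929) and *Sema3c* (0.903) in the first matrix and by *Pappa* (0.975), *Plekha5* and *Abca6* (0.953) in the second. *Rarb* was followed by *Bcl6* (0.962) and by *Sort1* (0.953), and *Rxrg* by *4930506C21Rik* (0.980) and *Ndufs3* (0.977) and by *Dlgap1* (0.972). The best matches of *Rara* were *Gab3* (0.947) and *Pcdhga6* (0.824), of *Rarg* *Med13l* (0.946) and *Arhgef10* (0.945), and of *Rxra*, the flattest of them, *Itgb5* (0.873) and *Fam227a* (0.834). No gene was the best match of the same member in both matrices.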

How the data were processed

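Nuclei of mouse iBAT were profiled by droplet-based single-nuclei RNA sequencing. The authors aligned reads to mm10 with Cell Ranger 6.1.2 and deposited raw UMI counts per gene and nucleus for 5 libraries in 2 matrices. The submitters' notes also name Seurat 4.1.0, and whether reads in introns were counted is not given in the sources used here. The matrices name no cell types. All 8 genes and the lists were chosen with earlier results of these data known.

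Nuclei with at least 200 UMIs and 100 genes were kept, which left 20307 of 20307 barcodes in the WT and Ucp1-STX4KO matrix and 27842 of 30000 in the aging matrix. The upper limits of the stated filter (2000 UMIs, 3000 genes) would have left 2763 and 18756 and were used as an alternative only. Each nucleus was gated by 12 marker lists within its library. For every class but adipocytes and endothelial cells, the share of UMIs in the list had to be at least 4 times that in nuclei that did not pass, with 3 distinct markers and 4 UMIs. Nuclei that passed no such list were then called adipocyte or endothelial where that list was at least 1.5 times its share in nuclei of the remaining classes and led the other by the same factor. A total of 4095 nuclei (20.2%) and 809 nuclei (2.91%) lay within a factor of 1.2 of this last limit. Graph clusters were found with Seurat 5.3.0 and sctransform 0.4.2 in R 4.3.3 (3000 features, 30 components, resolution 0.3). For this 65 genes were withheld, which are the retinoid genes, the other pathway genes and *Ucp1*. No doublet caller was run, and the 8% of nuclei with the most UMIs were left out as an alternative.

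Sums of UMIs per class were made in Python 3.11.15 with scipy 1.17.1, pandas 2.3.3 and numpy 2.4.6. Levels have exact Poisson intervals and ratios exact conditional binomial intervals at 95%. Nuclei are not replicates, each matrix is 1 pooled sample, and no p-value was computed. Total UMIs over all barcodes were 39857819 and 76195924 per library in the first and 14486189 to 20891602 in the aging matrix, and the UMIs of each class set the precision. Named were the 8 genes, the pathway genes with at least 200 UMIs in a matrix, markers, leading genes of clusters and genes from the 3 most like each member. *Cyp26a1* and *Bco1* were named for their promoter repeats, outside this rule and after the values were seen. Some results are not reported here. In simulated data with known answers, 100 of 100 genes with a 4-fold difference between stromal-gated and remaining nuclei were called among 9406 genes tested, as were 0 of 100 with a 1.5-fold and 0 of 9164 with no difference. The 1.5-fold genes lie below the 2-fold limit of a call. The gate placed 4152 of 4400 simulated nuclei of 5 classes correctly. Their marker shares came from nuclei the same gate had placed, so this result is favoured in advance. Skeletal muscle, Schwann and T lymphocyte nuclei were not simulated. Coordinates of genes were read from a GRCm38 gene annotation by Ensembl identifier.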

Additional observations from a re-analysis of the deposited data

Results flagged for a closer look

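*Aldh1a1* was also present in nuclei that the comparisons left out. Nuclei that passed no gate held 9.56 CPM in the WT and Ucp1-STX4KO matrix (4056 nuclei, 166 UMIs) and 30.6 CPM in the aging matrix (4950 nuclei, 214 UMIs). Nuclei that passed the gates of more than 1 class held 137 CPM (85 nuclei, 86 UMIs) and 322 CPM (449 nuclei, 575 UMIs). The values are above the level that 3 UMIs would give in each set. In the first matrix the mixed nuclei were below the stromal nuclei (355 CPM), and their interval (110–170) overlapped that of the Schwann nuclei (140–270). In the aging matrix they were below both stromal (447 CPM) and Schwann nuclei (384 CPM). Which classes the mixed nuclei combine was not tested here.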

How the results depend on the processing

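A crossing of 1 by an alternative ratio was counted where the main interval left 1 out, or with libraries weighted equally. Crossings of *Rara* and *Rarg* between *Ucp1*-low and *Ucp1*-high nuclei with a library alone fell outside this count. The side of 1 does not show whether the size of a ratio held. Against the main values, 169 alternative values of ratios were classed as the same, 106 as moved and 3 as reversed. Of the alternative levels in CPM 11 were classed as the same and 9 as moved, and of the alternative counts 24 and 8. By the count of crossings, 275 of 278 alternative values of ratios did not cross 1. The exceptions, in the WT and Ucp1-STX4KO matrix, were *Rarb* in mural against endothelial nuclei with library 1 alone (0.905, against 1.93 with library 2), *Rxra* in mural against adipocyte nuclei under the full stated filter (0.651), which leaves nuclei of library 2 only, and *Rxrg* in *Ucp1*-low against *Ucp1*-high nuclei with library 2 alone (1.11, against 0.853 with library 1). The cause was not tested.

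The *Aldh1a1* ratio of stromal to adipocyte nuclei in that matrix, 18.4, became 16.7 with graph clusters, 16.0 with a stricter gate, 6.099 with the full filter, 19.8 after thinning, 23.4 without the nuclei with the most UMIs and 13.5 with libraries weighted equally, and ran from 1.87 to 259 with a library alone. For muscle to adipocyte nuclei the ratio of 20.2 became 23.4, 15.6, 9.33, 22.7 and 24.6 under the first 5 of these settings and 6.45 with library 2 alone. In the aging matrix the stromal ratio of 32.8 became 21.0, 22.2, 54.7, 43.9 and 59.3 under the same 5 settings, and the Schwann ratio of 28.2 became 21.4, 21.1, 59.9, 49.6 and 61.1, with 20.8 for library 1 alone.

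For the receptors of the first matrix, the full filter gave 3.70 for *Rara* in macrophage to adipocyte nuclei (7.10 to 12.4 with a library alone), 3.01 for *Rarb* in adipocyte to endothelial nuclei and 4.82 for *Rarg* in endothelial to adipocyte nuclei (2.55 to 7.01). The *Rarb* ratio was also 3.04 after thinning, 2.50 without the nuclei with the most UMIs, 1.59 with libraries weighted equally and 1.38 to 2.30 with a library alone. *Rxrg* in adipocyte to endothelial nuclei ran from 1.30 to 4.55. In the aging matrix the full filter gave 7.68 for *Rarb* in adipocyte to endothelial nuclei (7.67, 11.4 and 11.8 with libraries alone), 1.64 for *Rarg* in endothelial to adipocyte nuclei (1.79 after thinning, 3.10 with library 1 alone), 7.41 for *Rxrg* in adipocyte to endothelial nuclei (8.48, 9.99 and 21.0 with libraries alone) and 7.52 for *Rxrg* in Schwann to adipocyte nuclei (5.49 without the nuclei with the most UMIs, 3.30 with library 1 alone).

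Between *Ucp1*-low and *Ucp1*-high nuclei of the first matrix, the *Aldh1a1* ratio of 28.7 became 44.2 without integration, 31.9 with k-means and 34.7 without nuclei that held a stromal, muscle or Schwann marker UMI, an alternative chosen after seeing the data, and ran from 10.4 to 43.8 with a library alone. The *Rarb* ratio of 0.286 became 0.249 at resolution 0.8, 0.234 with k-means, 0.474 without those nuclei and 0.350 to 0.449 with a library alone. In the aging matrix the *Aldh1a1* ratio of 8.18 became 3.90 at resolution 0.8, 2.01 with k-means, 4.42 without those nuclei and 3.03 with library 1 alone. The *Ucp1*-low group there held 65 nuclei in the main setting, 956 at resolution 0.8 and 791 with k-means. The ratios of 3.90 and 2.01 are thus of far larger groups. Clusters without integration gave no *Ucp1*-low nuclei there. In the first matrix the group held 611 nuclei in the main setting, 2094 without integration, 555 at resolution 0.8 and 389 with k-means. The *Aldh1a1* ratio of brown-poor to brown-rich nuclei of the first matrix, 25.04, became 14.3 after thinning and 10.5 without nuclei with a marker UMI of another class. Without a minimum of UMIs, 26 of 53 in place of 14 of 36 pathway genes stood out in a class, beside 45.7% of all 24347 genes tested.

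No paired analysis was possible because no result comes from a test and barcode suffixes cannot be tied to samples. Depth limits *Aldh1a2* and *Aldh1a3* in both matrices and every *Ucp1*-low value of the aging matrix.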
